A study of Mus musculus with 12 samples.

Results

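The genes Tnfsf11, Tnfrsf11a and Tnfrsf11b encode the ligand RANKL, its receptor RANK and osteoprotegerin, the soluble decoy that binds RANKL. They were chosen by name as the components of this signal, and are 3 of the 21887 coding genes in the gene table used. A peak belonged to a gene when its summit, the base of highest signal, lay inside the gene or within 100 kb of either end. By this rule 301 of the 741142 peaks in the 8 peak lists belonged to the 3 genes: 118 to Tnfsf11, 124 to Tnfrsf11a and 59 to Tnfrsf11b.

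RANKL is a ligand of the tumour necrosis factor (TNF) family. In the mouse mammary gland it is made by luminal cells that carry steroid hormone receptors, is induced by progesterone, and acts on RANK of neighbouring epithelial cells to drive side branching and alveolar growth. RANK passes the signal through TRAF adaptors to NF-κB, and osteoprotegerin limits it by taking up the ligand. The progesterone receptor (PR, encoded by Pgr) and the estrogen receptor ERα (encoded by Esr1) are hormone-bound transcription factors that often act from sites far from the genes they control.

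PR and ERα were mapped by chromatin immunoprecipitation and sequencing (ChIP-seq) of whole mammary glands from mice whose Esr1 carried Y541S, which replaces 1 amino acid where ERα binds its hormone, and from mice with wild-type Esr1 (WT). All mice were raised until 8 weeks old and then bore estradiol (E2) and progesterone (P4) implants for 4 days before harvest, so no group was without hormone. Each genotype and receptor had 2 libraries: Y541S PR, WT PR, Y541S ERα and WT ERα. The comparison asked where each receptor met chromatin in mutant and wild-type glands, and the 4 libraries of a further mutation, D542G, were not analysed here. How the Y541S allele was made, which cells carry it and how many animals went into a library are not given in the sources used here. The series title speaks of luminal cells, whereas the labels give whole glands. Peak positions do not measure expression, so neither tissue nor genotype could be checked, and fewer bound cells cannot be told apart from less binding per cell.

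The lists held 64488 to 113695 peaks, and the Y541S lists were longer than the WT lists of the same receptor. Background coverage, the reads expected over a base without enrichment, ran from 0.927 to 2.68. Peaks of all 8 libraries that overlapped by at least 1 bp were joined into 321963 sites, of which 134 lay at the 3 genes: 44 at Tnfsf11, 63 at Tnfrsf11a and 27 at Tnfrsf11b. Of these 134 sites, 84 had a peak in a single library. Within each list a peak was ranked by its −log10 p, and the rank is given as a percent of the list, so that 1% means stronger than all but the top 1% of peaks. Peak heights were not normalised between libraries, and a rank percent also depends on the length of its list.

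At Tnfsf11 the data were dominated by PR. Of its sites, 3 upstream of the gene, 33.6, 39.0 and 75.4 kb from its start, ranked in the top 2% of all 4 PR lists, in both genotypes, and had only modest ERα peaks. Neither Tnfrsf11a nor Tnfrsf11b had a site in the top 2% of all 4 lists of either receptor. Of all coding genes, 12.5% had at least 1 such PR site within 100 kb and 0.151%, or 33 genes, had at least 3; for ERα these shares were 10.7% and 0.0959%. The number of 3 sites was chosen after the values were seen. The count rests on ranking by −log10 p. Ranked by summit coverage all 3 sites stayed in the top 2% of every PR list, but ranked by deposited fold the 75.4 kb site fell to 4.90% in Y541S PR replicate 1, leaving 2 sites, and the 39.0 kb site was at 1.99% there.

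**Figure D1:**
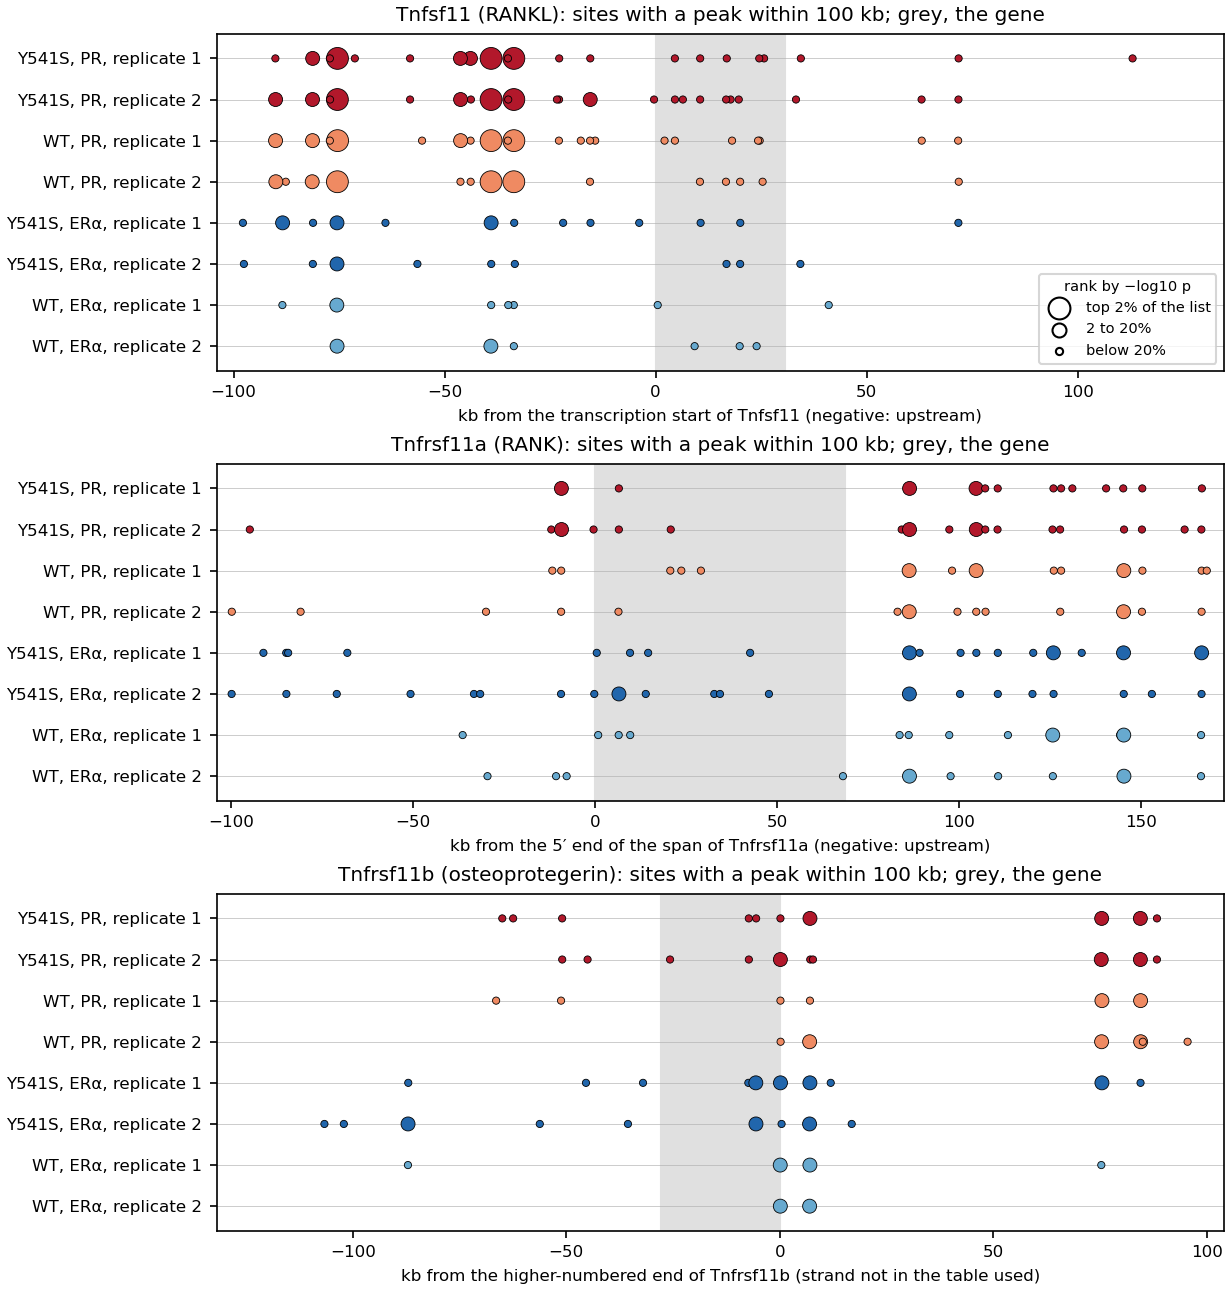
Each row is a library and each point a site with a peak in it, placed by distance in kb from the gene's start (for Tnfrsf11b, from its higher-numbered end) and sized by its rank by −log10 p, with the gene in grey. The largest points, for the top 2% of a list, occur at 3 places upstream of Tnfsf11 in all 4 PR libraries and at none of the other sites.

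Tnfsf11 (gene ID 21943) lies on chromosome 14 at 78277446 to 78308043, on the minus strand of mm10, so that higher positions are upstream. The site 39.0 kb upstream, at 78346760 to 78347326, had positions 98 and 214 in the 2 Y541S PR lists and 153 and 75 in the 2 WT PR lists. These positions equal 0.0862 and 0.211% of the Y541S lists and 0.184 and 0.0802% of the WT lists. The genotypes overlapped, with the top rank percent in WT replicate 2. The deposited fold over the local expectation was 17.4 and 16.1 in Y541S PR and 14.3 and 19.2 in WT PR, and the coverage recovered at the summit was 288 and 137 reads in Y541S PR and 119 and 112 reads in WT PR. The 4 PR summits lay within 10 bp of each other. ERα coverage at the same site was 17 and 8 reads in Y541S and 14 and 12 reads in WT, with rank percents of 13.3 and 50.7 in Y541S and 24.8 and 8.55 in WT.

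The site 75.4 kb upstream, at 78383057 to 78383988, had PR rank percents of 0.291 and 0.201 in Y541S and 0.118 and 0.305 in WT. It was also the best ERα site of the locus, at 6.19 and 4.71% of the Y541S ERα lists and 5.98 and 2.57% of the WT lists. Both receptors thus had a peak there in every library, PR at summit coverages of 270 and 147 reads in Y541S and 133 and 102 reads in WT, and ERα at 25 and 20 reads in Y541S and 26 and 20 reads in WT. The summits of the receptors did not coincide. The 4 PR summits fell at 78383403 to 78383447 and the 4 ERα summits at 78383528 to 78383583, an interval of 81 bp between the nearest of them. Every PR summit lay on the same side of every ERα summit at 10.4% of the 12113 sites with a peak in all 8 libraries.

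The site 33.6 kb upstream, at 78341237 to 78341938, had PR rank percents of 0.401 and 0.253 in Y541S and 0.357 and 1.45 in WT. Its coverage was 213 and 118 reads in Y541S PR and 97 and 55 reads in WT PR. ERα coverage here was 10 and 6 reads in Y541S and 13 and 9 reads in WT. Both Y541S ERα rank percents, 50.2 and 89.5, were weaker than both WT values, 29.2 and 22.8.

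**Figure D2:**
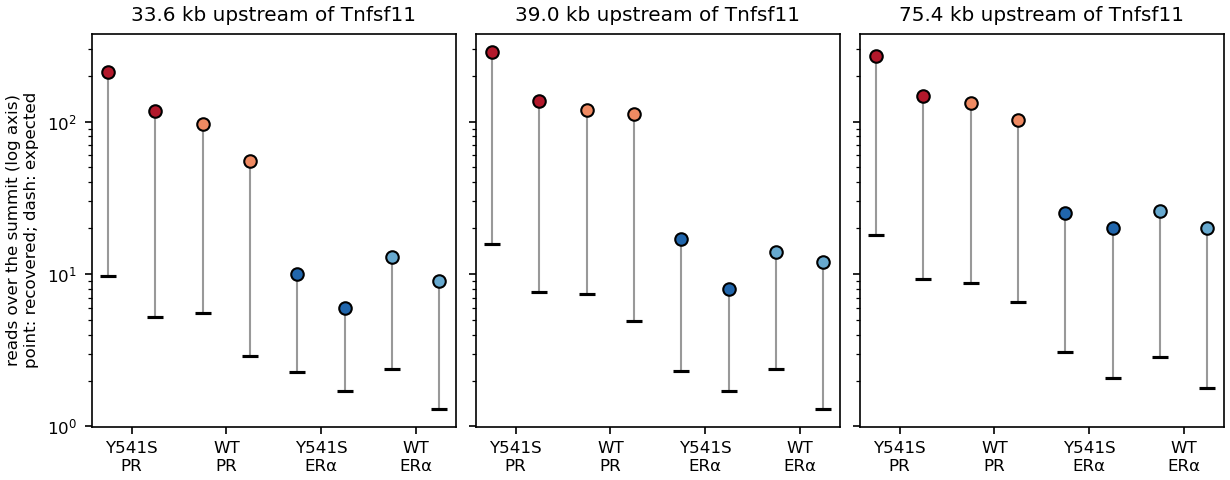
Points give the reads over the summit recovered from the deposited values (log axis) and dashes the local expectation, for each of the 8 libraries at the 3 upstream sites of Tnfsf11. PR points lie at 55 to 288 reads and ERα points at 6 to 26 reads, and the depth of the libraries was not equalised.

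The best PR rank at Tnfsf11 was 0.201% or stronger in each of the 4 libraries. Of 21887 genes, 243 (1.11%) had a best PR rank at least that strong in every list. For ERα the weakest best rank of Tnfsf11 was 6.19%, which 29.2% of genes matched. At Tnfrsf11a the corresponding values were 13.6% for PR, matched by 56.5% of genes, and 7.41% for ERα, matched by 34.6%. At Tnfrsf11b they were 13.6% for PR, matched by 56.9% of genes, and 12.6% for ERα, matched by 53.9%. RANKL thus stood among the genes with the strongest PR peaks nearby, while the receptor and decoy genes lay near the middle.

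A peak in all 8 libraries was found at 8 sites of the 3 loci, 3 at Tnfsf11, 3 at Tnfrsf11a and 2 at Tnfrsf11b, or 8 of 134, against 3.76% of all sites. At the 3 Tnfsf11 sites every PR rank was stronger than every ERα rank, and at 0 of the other 5 was this so. Among all 12113 sites with 8 peaks, PR ranked stronger throughout at 10.6% and ERα at 20.7%.

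**Figure D3:**
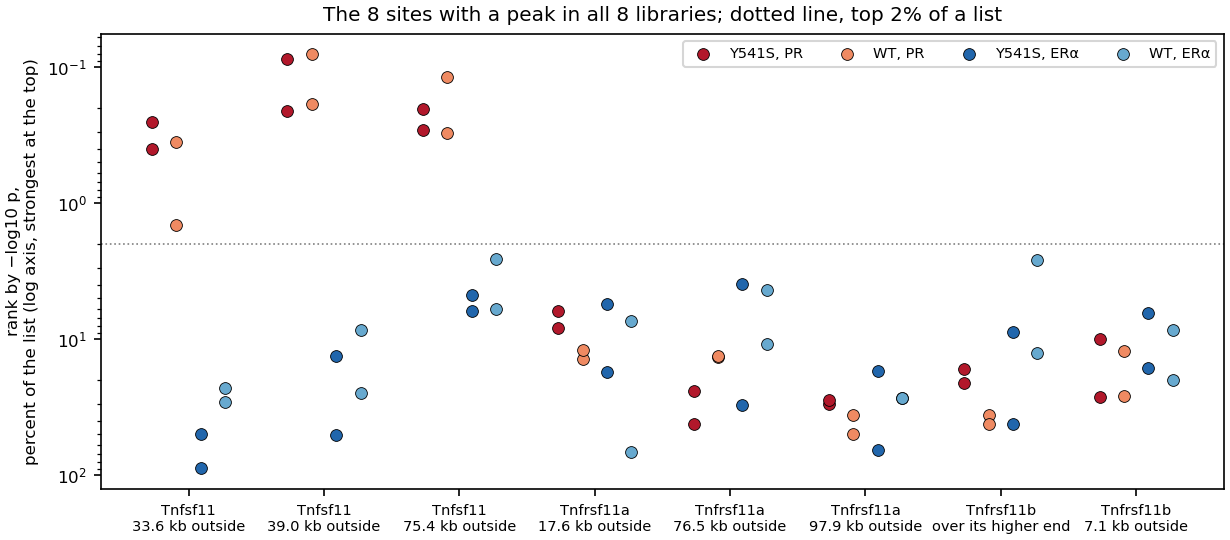
Rank by −log10 p as percent of the list (log axis, strongest at the top) at the 8 sites with a peak in all 8 libraries, 1 point per library. The PR points of the 3 Tnfsf11 sites lie above the dotted line at 2% and apart from the ERα points, while both receptors overlap at the 5 sites of Tnfrsf11a and Tnfrsf11b.

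A further 6 sites at Tnfsf11 had a PR peak in all 4 PR libraries. Of these, 5 lay upstream. The site 81.3 kb from the start was the strongest of them in both Y541S lists, at PR rank percents of 5.34 and 3.38 in Y541S and 14.6 and 9.69 in WT. ERα peaks at that site occurred in both Y541S libraries, at 25.4 and 89.5% of the list, and in neither WT library. The site 90.0 kb upstream was the strongest in both WT lists, ranking at 23.4 and 10.99% in Y541S PR and 12.3 and 5.31% in WT PR. Sites 43.9 and 46.2 kb upstream joined it in having no ERα peak in any library. Closest to the start was the site 15.5 kb upstream, at 20.9 and 18.3% in Y541S PR and 26.4 and 79.7% in WT PR. Its only ERα peak was in Y541S replicate 1, at 81.3% of the list. The sixth lay 41.1 kb beyond the 3′ end and was weak, at 52.9 and 42.7% in Y541S PR and 83.0 and 69.5% in WT PR.

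No site overlapped the transcription start of Tnfsf11. The nearest peak began 0.223 kb upstream and occurred in Y541S PR replicate 2 alone, at 52.6% of its list. Tnfrsf11a was alike in this, with a peak of Y541S ERα replicate 2 at 46.9% of its list, ending 0.195 kb before the transcript start. The 250 bases before each start are shown because these promoters are where a proximal site would lie, and they carried a peak in 1 of 8 libraries each. The sequences are from RefSeq (GRCm38.p6, the assembly of mm10), 5′ to 3′ on the strand of the gene, with the bases under that peak in capitals. Tnfsf11 is chr14:78308044-78308293 on the minus strand and Tnfrsf11a is chr1:105780473-105780722 on the plus strand.
Tnfsf11: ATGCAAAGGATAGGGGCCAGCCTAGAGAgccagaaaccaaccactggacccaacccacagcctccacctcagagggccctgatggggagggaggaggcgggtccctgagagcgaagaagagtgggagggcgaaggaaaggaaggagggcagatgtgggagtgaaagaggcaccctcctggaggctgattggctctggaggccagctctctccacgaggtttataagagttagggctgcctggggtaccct
Tnfrsf11a: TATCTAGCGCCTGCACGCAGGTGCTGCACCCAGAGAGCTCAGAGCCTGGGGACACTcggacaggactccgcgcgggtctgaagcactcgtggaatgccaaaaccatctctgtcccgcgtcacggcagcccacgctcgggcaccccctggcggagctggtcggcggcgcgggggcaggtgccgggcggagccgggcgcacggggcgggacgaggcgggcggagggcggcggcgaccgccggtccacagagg
The peaks covered 28 and 56 of the 250 bases, in the order printed. GC content was 60.4% for Tnfsf11 and 73.6% for Tnfrsf11a, with 4 and 31 CpG dinucleotides, against a median of 52.4% GC over 32851 promoters. Neither window held, on either strand, the palindromic estrogen response element with a spacer of 3 bases, its single arm AGGTCA, the progesterone response element core ACANNNTGT, its single arm TGTTCT or the forkhead motif TGTTTAC. Of the 250-base windows of all promoters, 0.0639%, 14.0%, 5.84%, 16.1% and 3.17% held them, in the same order. Each single arm overlaps its full element in part, and the absence of these letters says nothing of the distal sites.

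Peak numbers at Tnfsf11 were 21 and 24 in the Y541S PR libraries and 21 and 14 in the WT PR libraries. For ERα they were 15 and 10 in Y541S and 7 and 6 in WT. PR had more peaks than ERα within each genotype, and over all 8 libraries the ranges met, with 14 peaks in WT PR replicate 2 and 15 in Y541S ERα replicate 1. PR libraries averaged 20 ± 4.24 peaks and ERα libraries 9.5 ± 4.04 (SD, n = 4 each). The difference of 10.5 had a two-sided exact permutation p of 0.0556, with receptors permuted within genotype, the smallest that 36 arrangements allow. It was 6 and 14 within replicates 1 and 2 of Y541S and 14 and 8 within those of WT. Both PR libraries exceeded both ERα libraries at 21.8% of genes in Y541S and 37% in WT, so that a separation within a single genotype was not rare. The share of genes separated within both genotypes is not given here. All 4 PR libraries exceeded all 4 ERα libraries at 5.52% of genes, with the reverse at 0.645%, and Tnfsf11 showed neither. A p over both receptors would be too small if their libraries shared chromatin, on which the labels are silent.

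In the lists as deposited, the number of PR peaks at Tnfsf11 did not separate the genotypes. Y541S averaged 22.5 ± 2.12 PR peaks and WT 17.5 ± 4.95 (SD, n = 2 each), a difference of 5 within the spread of the libraries (exact permutation p = 0.667, two-sided). Replicate 1 alone gave 0 and replicate 2 alone 10, while leaving out WT PR replicate 2 gave 1.5. The difference depended on the setting. It grew to 6.5 at −log10 p of at least 5 (20 and 15 peaks in Y541S, 12 and 10 in WT). At −log10 q of at least 1.3 it was 8 (21 and 21 in Y541S, 13 and 13 in WT). Scaling coverage to the library of lowest depth gave 9.5 (21 and 24 in Y541S, 12 and 14 in WT). Each of these had an exact permutation p of 0.333, the smallest possible. In the 20000 strongest peaks of each list it was only 1 (6 and 7 peaks in Y541S, 6 and 5 in WT; exact permutation p = 0.667). As peaks per 10000 of the list it was 0.0931. For ERα the averages were 12.5 ± 3.54 in Y541S and 6.5 ± 0.707 in WT (SD, n = 2 each). Both Y541S values exceeded both WT values, with differences of 8 and 4 within replicates 1 and 2 (exact permutation p = 0.333, the smallest 6 arrangements allow). Such a separation was found at 56.4% of 20563 genes for ERα and the reverse at 0.564%, and the Y541S ERα lists were longer throughout. The Tnfsf11 difference in ERα shrank to 1 at −log10 p of at least 5 (6 and 3 peaks in Y541S, 4 and 3 in WT; exact permutation p = 1), to 3.5 at −log10 q of at least 1.3 (12 and 6 in Y541S, 6 and 5 in WT; p = 0.667) and to 2 with scaled coverage (8 and 6 in Y541S, 4 and 6 in WT; p = 0.667). In lists of the 20000 strongest peaks it turned to −1.

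**Figure D4:**
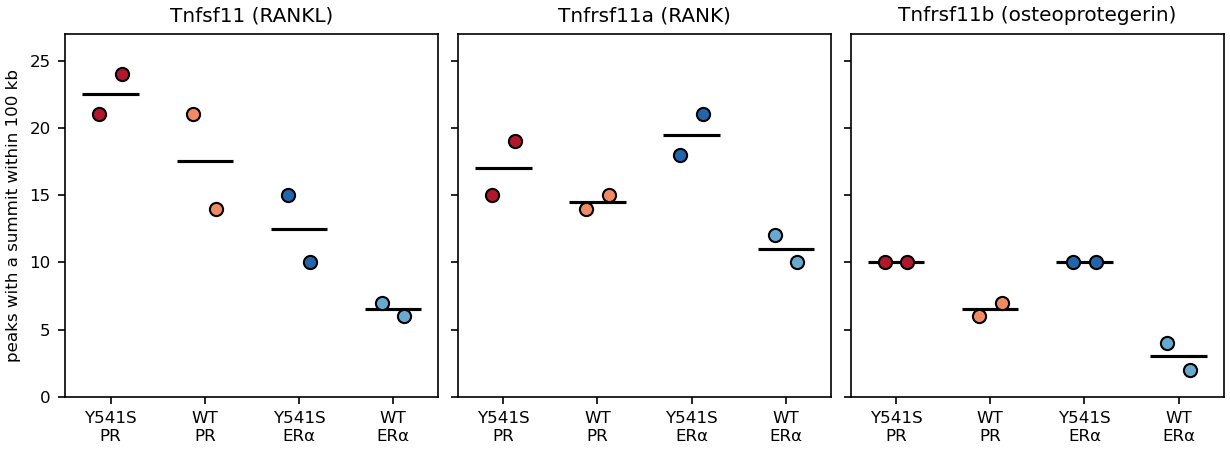
Number of peaks with a summit within 100 kb of each gene, 1 point per library (replicate 1 left, replicate 2 right) and a bar at the mean of 2. PR lies above ERα within each genotype at Tnfsf11, and Y541S lies above WT for ERα at all 3 genes in the lists as deposited.

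Of the 9 PR sites of Tnfsf11 found in all 4 PR libraries, both Y541S rank percents were stronger than both WT values at 5, and the reverse held at 0. Over all 38260 such PR sites the shares were 26.3% and 10.5%. By position in the list, which does not grow with its length, Y541S was ahead at 4 and WT at 1 of the 9, against 16.8% and 18.7% of all such sites. The 3 strongest sites were not among them by either measure. Of the 9 ERα sites of the 3 loci found in all 4 ERα libraries, Y541S ranked stronger at 0 and WT at 1 by percent, against 37.3% and 5.12% of 20044 such sites. By position the counts were 0 and 3, against 18.2% and 14.4%. A PR peak in both Y541S and neither WT library was found at 1 site, 58.2 kb upstream, at 32.7 and 68.4% of the Y541S lists, and the reverse at 0 sites. For ERα there were 2 such Y541S-only sites, the 81.3 kb site already described and a site 97.6 kb upstream that is closer to Akap11, at 94.1 and 50.7%. For each receptor the median coding gene had 1 Y541S-only site and 0 WT-only sites within 100 kb.

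Tnfrsf11a (gene ID 21934), the gene of the receptor RANK, spans chromosome 1 from 105780673 to 105849444 on the plus strand. PR peaks lay mainly beyond the 3′ end, 12 and 13 of them in the Y541S libraries and 9 and 10 in the WT libraries. Of the ERα peaks, 10 and 8 in Y541S and 8 and 6 in WT lay there. In all, PR gave 15 and 19 peaks in Y541S and 14 and 15 in WT, and ERα 18 and 21 in Y541S and 12 and 10 in WT. PR libraries averaged 15.75 ± 2.22 and ERα libraries 15.25 ± 5.12 peaks (SD, n = 4 each), a difference of 0.5 within the spread (exact permutation p = 0.889). A −log10 p minimum of 5 gave 4, and it came to 3.25 at −log10 q of at least 1.3 (exact permutation p = 0.0556 for each, the smallest possible), 3.5 with scaled coverage (p = 0.222) and −0.5 in the 20000 strongest peaks (p = 0.667), so it depended on the threshold. Within replicates 1 and 2 it was −3 and −2 in Y541S and 2 and 5 in WT. In ERα both Y541S values exceeded both WT values, at 19.5 ± 2.12 and 11 ± 1.41 peaks (SD, n = 2 each). The exact permutation p was 0.333, the smallest possible, and replicates 1 and 2 gave 6 and 11 more. Such a separation was found at 56.4% of 20563 genes for ERα, whose Y541S lists were longer. As peaks per 10000 of the list the ERα averages were 1.84 ± 0.216 in Y541S and 1.60 ± 0.0728 in WT (SD, n = 2 each). In PR the averages were 17 ± 2.83 peaks in Y541S and 14.5 ± 0.707 in WT. The difference of 2.5 was within the spread (exact permutation p = 0.667), and it was 1 and 4 within the replicates. A −log10 p minimum of 5 gave 2.5 again, and it came to 3.5 at −log10 q of at least 1.3 (exact permutation p = 0.333 for each). Upstream of the gene, where part of the window lies in the coding gene Relch, ERα had 4 and 8 peaks in Y541S and 1 and 3 in WT. Counted only where Tnfrsf11a was the closest coding gene, the ERα difference was 4.5 (12 and 12 in Y541S, 8 and 7 in WT). A −log10 p minimum of 5 gave 2.5 (8 and 6 in Y541S, 4 and 5 in WT). Each had an exact permutation p of 0.333. The ERα difference turned to −0.5 in the 20000 strongest peaks, and the PR difference to −0.0491 as peaks per 10000 of the list.

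The 3 sites of Tnfrsf11a with a peak in all 8 libraries lay 17.6, 76.5 and 97.9 kb beyond its 3′ end. The nearest, at 105866557 to 105867468 in the noncoding gene Gm41926, had PR rank percents of 8.23 and 6.19 in Y541S and 14.1 and 12.1 in WT. Its ERα rank percents were 17.5 and 5.48 in Y541S and 67.5 and 7.41 in WT. The genotypes were separate for PR and overlapped for ERα. The other two are closer to the coding gene Zcchc2 than to Tnfrsf11a. The site 76.5 kb away, at 105925545 to 105926499, ranked for ERα at 3.96 and 30.8% in Y541S and 4.32 and 10.9% in WT. In PR it ranked at 24.1 and 42.4% in Y541S and 13.6 and 13.3% in WT, so that WT was the stronger genotype there. The site 97.9 kb away was weaker, at 30.2 and 28.1% in Y541S PR and 36.04 and 49.8% in WT PR.

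PR peaks in all 4 PR libraries were found at 7 sites of Tnfrsf11a, and 2 of them, 59.1 and 81.6 kb beyond the 3′ end, had no ERα peak. The site nearest to the start lay 9.27 kb upstream, at 105771027 to 105771679. Its PR rank percents were 10.8 and 16.7 in Y541S and 30.5 and 53.5 in WT, with both Y541S values the stronger. Over the 7 sites Y541S ranked stronger at 4 and WT at 2 by percent of the list, and each at 2 by position in the list. Over all 38260 such PR sites the shares were 26.3% and 10.5% by percent, and 16.8% and 18.7% by position. ERα had 4 sites in all 4 ERα libraries, the fourth lying 57.0 kb beyond the 3′ end at 13.6 and 29.6% in Y541S and 13.1 and 46.1% in WT. At all 4 of these ERα sites the genotypes overlapped. Over all 20044 such ERα sites, Y541S ranked stronger by percent at 37.3% and WT at 5.12%. Y541S-only sites numbered 1 for PR, at 79.6 and 81.7% of the lists, and 3 for ERα, at 45.3 to 88.3%. WT-only sites numbered 0 for both receptors. The median coding gene had 1 Y541S-only site and 0 WT-only sites of each receptor within 100 kb.

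Tnfrsf11b (gene ID 18383), which encodes osteoprotegerin, spans chromosome 15 from 54250619 to 54278484, and its strand was not in the table used. Alone among the 3 genes, it had a site over a gene end. That site, at 54277950 to 54279405 over the higher-numbered end, had a peak in all 8 libraries. Its PR rank percents were 21.1 and 16.5 in Y541S and 36.04 and 42.3 in WT, with both Y541S values the stronger. ERα ranked there at 8.95 and 42.1% in Y541S and 12.6 and 2.62% in WT, so the genotypes overlapped by percent. By position in the list WT was ahead, at 9156 and 1690 against 9568 and 44456 in Y541S. A second site with 8 peaks lay 7.07 kb outside the same end, at 54285307 to 54285827, with PR rank percents of 9.94 and 26.7 in Y541S and 26.4 and 12.2 in WT and ERα rank percents of 6.41 and 16.2 in Y541S and 19.9 and 8.55 in WT.

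The strongest PR peaks near Tnfrsf11b lay further out, 75.4 and 84.5 kb beyond the same end, where Colec10 is the closer coding gene. The site at 75.4 kb ranked at 3.86 and 4.97% in Y541S PR and 13.6 and 10.1% in WT PR. The site at 84.5 kb ranked at 9.24 and 4.25% in Y541S PR and 13.6 and 11.6% in WT PR. Y541S was the stronger genotype at both, by percent and by position in the list. Of the 4 sites of Tnfrsf11b in all 4 PR libraries, Y541S ranked stronger at 3 and WT at 0 by either measure. Over all 38260 such PR sites the shares were 26.3% and 10.5% by percent, and 16.8% and 18.7% by position. Inside the gene, at 54272718 to 54273137, ERα had a Y541S-only site at 9.92 and 11.4% of the Y541S lists, with 19 and 14 reads at the summit. PR had 3 Y541S-only sites, at 64.4 to 87.2% of the lists, and both receptors had 0 WT-only sites. Over all coding genes the median was 1 Y541S-only site and 0 WT-only sites of each receptor.

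Tnfrsf11b had 10 and 10 PR peaks in Y541S and 6 and 7 in WT, and 10 and 10 ERα peaks in Y541S and 4 and 2 in WT. Both Y541S values exceeded both WT values for each receptor. The PR averages of 10 ± 0 in Y541S and 6.5 ± 0.707 in WT differed by 3.5, and the ERα averages of 10 ± 0 and 3 ± 1.41 differed by 7 (SD, n = 2 each; exact permutation p = 0.333 for each, the smallest possible). Within replicates 1 and 2 the differences were 4 and 3 for PR and 6 and 8 for ERα. Such a separation was found at 32.9% of 20077 genes for PR, with the reverse at 2.81%, and at the 56.4% given above for ERα. The genotype differences shrank to 2 for each receptor at −log10 p of at least 5. In the 20000 strongest peaks they were 0.5 for PR and 1.5 for ERα. PR averaged 8.25 ± 2.06 and ERα 6.5 ± 4.12 peaks (SD, n = 4 each), a difference of 1.75 within the spread (exact permutation p = 0.333), with 0 and 0 within the replicates of Y541S and 2 and 5 within those of WT. It was 3.25 at −log10 q of at least 1.3 (exact permutation p = 0.0556, the smallest possible). Counted only where Tnfrsf11b was the closest coding gene, it turned to −0.5.

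The effect of genotype on peak number was also compared between the receptors. The Y541S minus WT difference in ERα exceeded that in PR by 1 peak at Tnfsf11 (two-sided exact permutation p = 0.944), by 6 at Tnfrsf11a (exact permutation p = 0.333) and by 3.5 at Tnfrsf11b (exact permutation p = 0.444). None passed 0.05, and with 36 arrangements none could.

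Taking the 3 loci as a group, PR had 20 sites in all 4 PR libraries, 5 Y541S-only and 0 WT-only sites. Another 58 sites had a PR peak but fell in none of these classes, and the remaining sites had no PR peak. Over all 189037 sites with a PR peak these classes made up 20.2%, 6.97% and 0.578%. ERα had 9, 6 and 0 sites of these classes and 64 other sites with an ERα peak. Over all 212825 sites with an ERα peak the classes made up 9.42%, 4.61% and 0.635%. A count of 0 WT-only sites is therefore near the background. Of the 20 PR sites, 8 were also in all 4 ERα libraries, a share of 31.7% over all such PR sites, and 5 had no ERα peak, against 21.5%. Of the 9 ERα sites, 8 were in all 4 PR libraries and 0 lacked PR, against 60.4% and 8.11%.

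Other genes that act with RANK were examined from a list of 32, covering TRAF adaptors, NF-κB subunits and inhibitors, kinases and mammary targets. A PR site in all 4 PR libraries lay within 100 kb of 31 of the 32, against 83.8% of all coding genes, and an ERα site in all 4 ERα libraries near 32, against 79.4%. The median number was 9 such PR sites per gene, against 6 over all genes, and 5.5 such ERα sites, against 3. Y541S-only PR sites lay near 28 of the genes and WT-only PR sites near 11, against 70.4% and 15.9% of all genes, and for ERα near 27 and 5, against 64.5% and 17.8%. Most PR sites were found near Nfkb1, an NF-κB subunit, with 20, Bcl3, a partner of NF-κB subunits, with 18, Lgr4, an R-spondin receptor, with 17, and Relb, a subunit of the noncanonical pathway, with 16. Most ERα sites were near Fos, a subunit of AP-1, with 13, the adaptor gene Gab2 with 12, the subunit gene Rela with 12 and Bcl3 with 11. Bcl3 and Relb are close neighbours in the mouse genome and can share sites.

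Of 17 other TNF family ligand genes, 17 had a PR site in all 4 PR libraries and 16 an ERα site in all 4 ERα libraries. Of 25 other TNF receptor family genes the numbers were 24 and 23. Over all coding genes the shares were 83.8% for PR and 79.4% for ERα. The median gene had 6 such PR and 4 such ERα sites among the ligands and 8 and 5 among the receptors. Over all genes the medians were 6 and 3. Y541S-only sites lay near 14 ligand and 22 receptor genes for PR and near 15 and 18 for ERα. WT-only sites lay near 1 and 7 for PR and near 7 and 6 for ERα. Of all genes, 70.4% had a Y541S-only PR site and 64.5% such an ERα site. For WT-only sites the shares were 15.9% and 17.8%. Tnfrsf21 had the most PR sites, 23, followed by Tnfrsf1a, a receptor of TNF, with 17, Ltbr, the lymphotoxin β receptor gene, with 14, and Tnfrsf9 with 13. For ERα they were Tnfrsf9 with 11 and Cd27, Tnf, Lta and Tnfsf12 with 10 each, and Tnf and Lta are neighbours that can share sites. Tnfrsf1a and Ltbr, both on chromosome 6, had the same best ERα rank, 2.14%, and can share sites too. By comparison, Tnfsf11, Tnfrsf11a and Tnfrsf11b had 9, 7 and 4 PR sites and 3, 4 and 2 ERα sites of this class.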

How the data were processed

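Chromatin (30 µg, with 4 µg of antibody) came from whole mammary glands, per the labels. The authors deposited 1 peak list per library, on mm10 according to the submitters' processing notes. The sources used here name neither aligner nor peak caller. Every peak of the deposited lists has a score, a fold ratio of summit coverage to local expectation, and −log10 p and −log10 q values. Reads were not used here, so precision was judged from the spread of 2 libraries. The series speaks of biological replicates without naming animals, so p-values cover the spread between these libraries, which may be technical.

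From the deposited fold and −log10 p, the whole-number coverage at each summit and its expectation were recovered for 100% of peaks (tolerance 1e-04 on −log10 p). The 0.001 quantile of the expectations served as background coverage. Coverage rests on reads without molecular identifiers. Peaks overlapping by at least 1 bp were merged into sites with Python 3.11.15, numpy 2.4.6, scipy 1.17.1 and pandas 2.3.3, tested on simulated data. Per receptor, a site was in all 4 libraries, Y541S-only (both Y541S, no WT) or WT-only. Peak numbers were compared by two-sided exact permutation tests at 0.05. The codes in the deposited files also separate the replicate numbers, so values within each number stand beside the pooled ones. Genes and promoters came from RefSeq tables of GRCm38.p6. No promoter of Tnfrsf11b was used here, and 2 of the 3 genes matched one.

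The 3 genes, the lists of 32, 17 and 25 genes (all matched by symbol or synonym) and the tests were chosen with earlier results of these data known. Sites named were those in all 4 libraries of a receptor, Y541S-only, WT-only or over a gene end and the best ranked; named list genes were the 4 with most sites of each receptor. Alternatives were other thresholds, list lengths, depth scaling, windows, merging rules, left-out libraries and a replicate block. Motifs inside sites were not searched, because no genome was used here.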

Additional observations from a re-analysis of the deposited data

How the results depend on the processing

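Of 120 alternatives for the 9 differences in peak number, 112 kept the direction or gave 0 (3 of them). Among the 112 are those of the replicate block, which keep each difference by construction. None passed 0.05, and none could, because the smallest exact permutation p that any of them allows is 0.0556. The excess of PR over ERα peaks at Tnfsf11 was positive in every alternative, from 3.5 in the 20000 strongest peaks to 12.25 without WT PR replicate 2. In the 20000 strongest peaks, the Y541S minus WT difference in ERα peaks turned to −1 at Tnfsf11 and −0.5 at Tnfrsf11a, and the PR minus ERα difference to −0.5 at Tnfrsf11a. As peaks per 10000, Tnfrsf11a turned to −0.0491 for Y541S minus WT in PR and −0.0978 for PR minus ERα. With the closest coding gene only, PR minus ERα at Tnfrsf11b turned to −0.5. Leaving out a library, PR minus ERα at Tnfrsf11a ran from −0.5 (without Y541S PR replicate 2) through −0.25 (without Y541S ERα replicate 1) to 1.5. In the other direction, PR minus ERα at Tnfrsf11a rose to 4 at −log10 p of at least 5. It was 3.25 at −log10 q of at least 1.3. Y541S minus WT in PR at Tnfsf11 rose to 6.5 and 8 at these settings, but fell to 1 in the 20000 strongest peaks. The cause of these changes was not tested.

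Of 72 alternatives for the site counts, 48 stayed within 1.5 times. Sites with 50% overlap gave 3 Y541S-only ERα sites, in place of 6. At −log10 p of at least 5, ERα had 3 sites in all libraries, 2 Y541S-only and 1 WT-only. The 20000 strongest peaks gave 7 PR sites in all libraries, 1 Y541S-only and 1 WT-only, and for ERα 2 in all libraries and 1 Y541S-only. Scaled coverage gave 1 Y541S-only ERα site. A 50 kb window gave 11 PR sites in all libraries and 3 Y541S-only, and for ERα 5 and 2. Leaving out a library relaxes the definition of a class. Y541S-only sites then ran from 9 to 20 for PR (20 without Y541S replicate 1, 15 without Y541S replicate 2, 9 and 10 without a WT library) and from 7 to 27 for ERα (27 and 26 without Y541S replicates 1 and 2). WT-only sites ran from 0 to 13 for PR and 0 to 9 for ERα, above 0 only without a WT library.

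Replicate numbers were tried as a block. Deviations of same-numbered libraries correlated across genes at −0.00913 to 0.139 over 6 pairs of groups, so the numbers were not taken to pair the libraries. With the block, the differences are the same by construction: for Y541S minus WT in PR 5, 2.5 and 3.5, in ERα 6, 8.5 and 7, and for PR minus ERα 10.5, 0.5 and 1.75, at Tnfsf11, Tnfrsf11a and Tnfrsf11b in that order. The exact permutation p for PR minus ERα at Tnfsf11 became 0.125, the smallest that 16 arrangements allow.

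In a setting chosen after the data were seen, the median best PR rank at Tnfsf11 was 0.305% by deposited fold and 0.0965% by summit coverage, against 0.102% by −log10 p. By fold, 2 of the 3 upstream sites stayed in the top 2% of all 4 PR lists. Absence from a list can be signal below its threshold.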

Other observations

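The local expectation behind a peak was compared with the background coverage of its library at the 3 upstream sites of Tnfsf11. In the ERα libraries the expectation was 1 to 1.36 times the background at these sites. At the site 33.6 kb upstream it was 3.99 and 3.85 times in Y541S PR and 2.08 and 3.11 times in WT PR, close to or below the medians of strong peaks in the same libraries. At the site 39.0 kb upstream of Tnfsf11 the expectation was 6.38 and 5.62 times the library's background coverage in Y541S PR and 2.76 and 5.26 times in WT PR. At the site 75.4 kb upstream it was 7.34 and 6.85 times in Y541S PR and 3.28 and 7.07 times in WT PR. Over the top 2% of peaks of each list the medians were 3.88 and 3.64 in the Y541S PR lists and 2.09 and 4.10 in the WT PR lists. Measured against the background coverage instead, the fold at the 39.0 kb site was 83.9 and 58.8 in Y541S PR and 32.7 and 58.6 in WT PR, where the deposited fold was 17.4 and 16.1 in Y541S and 14.3 and 19.2 in WT. WT PR replicate 1 had the lowest expectation over background of the 4 PR libraries at each of these sites, and its part in the genotype values was not tested.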
